A study of Mus musculus with 12 samples.

Results

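The 9 genes described here encode CC chemokines, small secreted proteins that draw monocytes and other leukocytes towards the cells that make them: Ccl2, Ccl7, Ccl12, Ccl8, Ccl3, Ccl4, Ccl5, Ccl6 and Ccl9. They were taken by gene symbol, 9 of the 19938 genes measured with a single symbol, and each had 1 probe set in the deposited table. Where a gene had several probe sets, the one kept would have been chosen by its mean over all arrays, which decided nothing here. The family itself was proposed with the irradiation differences of these data in view. Counts over the 9 genes are therefore descriptions and carry no weight as evidence that the family as a whole differs from other genes.

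Microarrays read the RNA of unsorted marrow, flushed out of long bones of B6 mice, with 3 arrays in each of 4 groups, 12 in all. Irradiated PTH mice were sublethally irradiated when 10 days old, by 2 doses of 310 cGy each, and then received parathyroid hormone (PTH, a peptide hormone given to build bone) over 5 days, from day 11 to day 15 of age. Irradiated vehicle mice had the same irradiation and vehicle on the same days. Nonirradiated PTH mice had the hormone without irradiation, and nonirradiated vehicle mice had vehicle without irradiation; marrow of all 4 groups was taken at 16 days of age. The labels give no PTH dose and leave unsaid if each array had its own mouse. The p-values then reflect how far these samples scatter, and some of that scatter may be technical. In such bulk RNA, fewer cells of a type and less RNA per cell cannot be told apart.

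CC chemokines act through G-protein-coupled receptors on the responding cell. CCR2, which binds CCL2, CCL7 and the mouse protein CCL12, lets monocytes leave the marrow for the blood, and CCR1, which binds CCL3 and CCL5 among others, serves the recruitment of monocytes and other leukocytes. Marrow stromal cells, endothelium and macrophages make CCR2 ligands after infection or injury, and in the mouse CCL6 and CCL9 are made by myeloid cells without such a stimulus.

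The genes lie in separate groups on chromosome 11. In the RefSeq gene order, Ccl2, Ccl7, Ccl11, Ccl12, Ccl8 and Ccl1 follow each other, and Ccl5, Ccl9, Ccl6, Ccl3 and Ccl4 form the other group. RefSeq promoter windows (build GRCm38.p6, 250 bases before to 50 after the gene's start) matched 5 of the 9 genes, Ccl12, Ccl8, Ccl3, Ccl6 and Ccl9. The first pair printed here belongs to neighbouring genes that were both higher after irradiation, and the Ccl9 window, from the other group, belongs to a gene that did not pass the test. Capitals mark matches to the motifs searched.
Ccl12 promoter, chr11:82101595-82101894, plus strand: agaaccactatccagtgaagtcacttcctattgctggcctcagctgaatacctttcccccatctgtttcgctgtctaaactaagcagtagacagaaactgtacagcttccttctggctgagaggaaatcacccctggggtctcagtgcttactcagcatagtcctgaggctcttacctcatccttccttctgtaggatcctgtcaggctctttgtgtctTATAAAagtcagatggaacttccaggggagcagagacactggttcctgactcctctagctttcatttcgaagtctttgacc
Ccl8 promoter, chr11:82114935-82115234, plus strand: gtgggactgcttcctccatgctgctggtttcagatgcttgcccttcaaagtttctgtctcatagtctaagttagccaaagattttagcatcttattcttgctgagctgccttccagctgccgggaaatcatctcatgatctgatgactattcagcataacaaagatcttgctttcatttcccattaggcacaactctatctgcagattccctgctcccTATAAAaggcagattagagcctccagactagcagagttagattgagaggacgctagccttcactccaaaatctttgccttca
Ccl9 promoter, chr11:83578587-83578886, minus strand: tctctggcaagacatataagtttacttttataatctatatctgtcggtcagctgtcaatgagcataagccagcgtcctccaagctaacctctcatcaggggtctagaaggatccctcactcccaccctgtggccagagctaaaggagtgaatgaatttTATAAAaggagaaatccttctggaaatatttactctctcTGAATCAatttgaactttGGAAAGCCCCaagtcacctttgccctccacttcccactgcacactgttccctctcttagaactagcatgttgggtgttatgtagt

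The letters TATAAA, searched on the gene's own strand, begin 31 bases before the start of Ccl12, 32 bases before that of Ccl8 and 92 bases before that of Ccl9. They were found in 3 of the 5 windows and in 8.32% of the 32841 RefSeq windows of the same length. Both strands were searched for the other motifs. The letters TGANTCA, a loose AP-1 pattern that allows any base at its centre, were found in Ccl9 alone among the 5 windows, as TGAATCA (7.81% of all windows). The NF-kB consensus was also found in Ccl9 alone (8.46% of all windows), and these capitals do not overlap. The interferon-stimulated response element (3.44% of all windows) and the gamma-activated site TTCNNNGAA (8.3% of all windows) had no match in the 5. A match describes letters in the window and is not evidence of binding.

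Some properties of the arrays bear on what follows. Interquartile ranges over all probe sets were 2.88 on the log2 scale in irradiated PTH replicate 3 and 2.86 in nonirradiated vehicle replicate 3, against 3.13 to 3.25 in the other arrays, and irradiated PTH replicate 3 stood apart on the first principal component (39.6% of variance). Xist and 3 Y-linked genes gave a female pattern in 1 of 3 irradiated PTH arrays, 1 of 3 irradiated vehicle arrays, 3 of 3 nonirradiated PTH arrays and 0 of 3 nonirradiated vehicle arrays. The 3 Y-linked genes read 3.59 to 5.60 in the female-pattern arrays, which shows where a transcript that is absent can read on this scale, although probe sets differ in this. Of these genes, Uty and Eif2s3y read 3.59 to 4.13 there and Kdm5d alone 5.21 to 5.60. A value above 4.13 is thus placed in this range by Kdm5d alone, and such a gene may or may not be expressed. Markers of marrow myeloid cells were present: the 12 neutrophil genes averaged 10.6 to 11.6 per array. Across all genes, limma (moderated test, Benjamini-Hochberg adjustment over 19938 genes, adjusted p under 0.05) called 2.43% in irradiated PTH against nonirradiated PTH marrow and 2.22% in irradiated vehicle against nonirradiated vehicle marrow, and 6.1% in the comparison averaged over both treatments. That averaged comparison called 500 genes higher and 716 lower in irradiated marrow.

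The comparison of irradiated with nonirradiated marrow, made within PTH-treated mice, within vehicle-treated mice and averaged over both, asks how the chemokine genes stood in marrow that had been irradiated. Averaged over both treatments, Ccl12 was 11.85-fold higher in irradiated marrow (95% interval 8.65 to 16.2, limma adjusted p = 3.02e-06), and Ccl7, Ccl8 and Ccl2 were 1.40- to 1.87-fold higher. The other 5 genes, Ccl3, Ccl4, Ccl5, Ccl6 and Ccl9, did not pass the test in any of the 3 comparisons, though Ccl5 passed as lower when arrays were weighted. All 4 genes that rose lie in the gene group that holds Ccl2, which also holds Ccl11 and Ccl1, described further on.

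**Figure D1:**
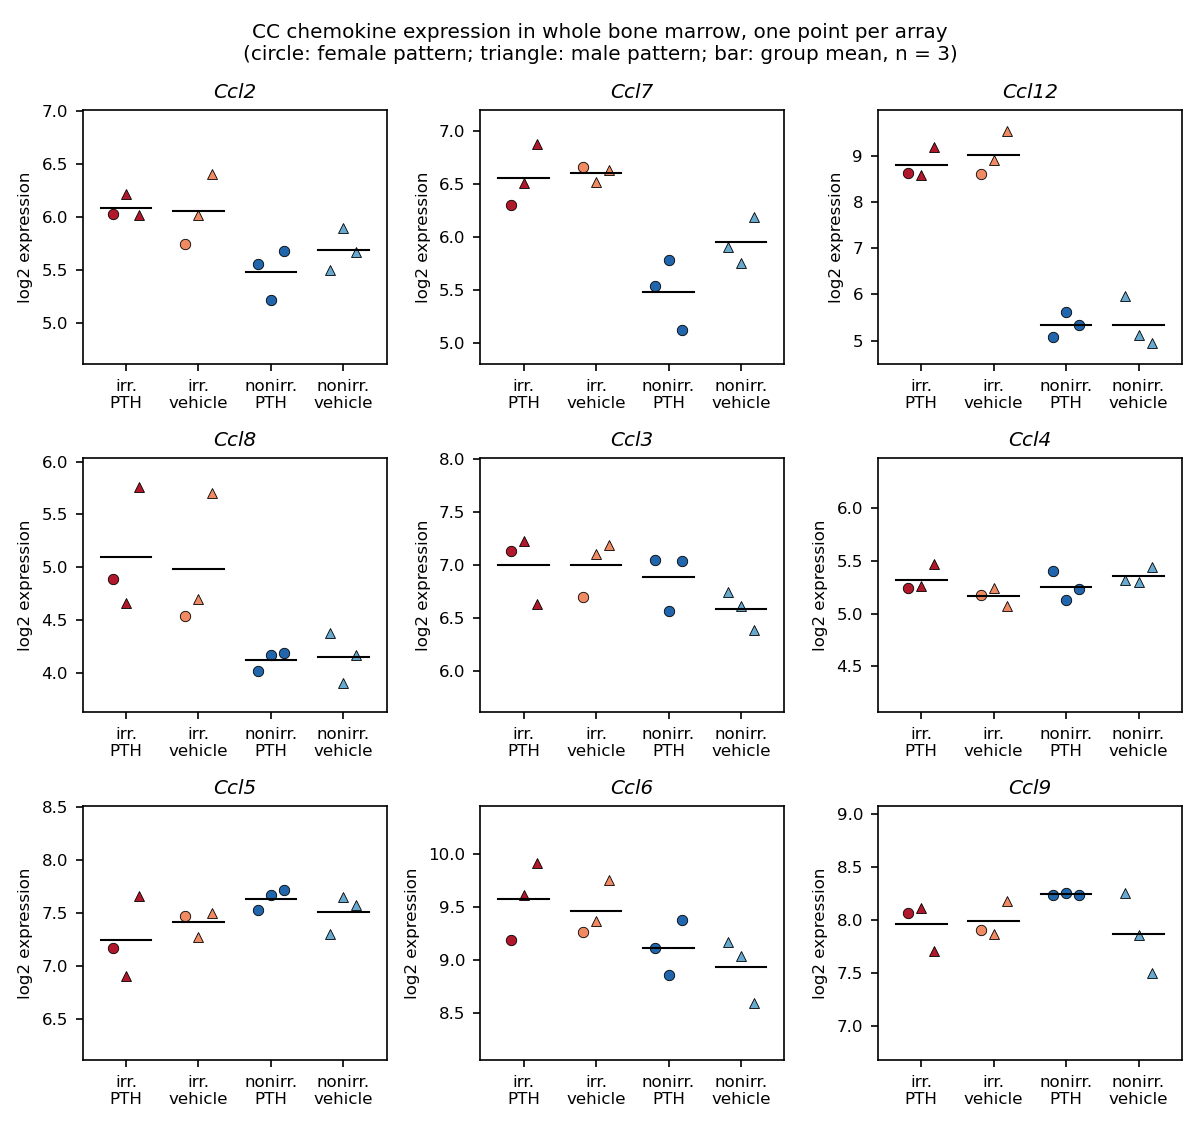
Log2 expression of the 9 chemokine genes, 1 panel per gene, in irradiated PTH, irradiated vehicle, nonirradiated PTH and nonirradiated vehicle marrow. Each point is 1 array, circles have a female pattern and triangles a male one, and bars are group means (n = 3). Irradiated arrays lie at 8.58 to 9.53 for Ccl12, above all nonirradiated arrays at 4.95 to 5.95, whereas Ccl3, Ccl4, Ccl5, Ccl6 and Ccl9 overlap between the states.

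Ccl12 (probe set 10379530) encodes a CCR2 ligand of the mouse also called MCP-5. In irradiated PTH marrow it read 8.64, 8.58 and 9.19 log2 units, against 5.08, 5.61 and 5.34 in nonirradiated PTH marrow. Vehicle-treated mice gave 8.60, 8.91 and 9.53 with irradiation, against 5.95, 5.11 and 4.95 without. Every irradiated array was above every nonirradiated array, by a gap wider than the range within either state. The difference was 3.46 ± 0.30 log2 units (SE; 11-fold, 95% interval 7.04 to 17.2, limma adjusted p = 0.000135) in PTH-treated mice and 3.68 ± 0.30 (12.8-fold, 8.18 to 19.95, adjusted p = 0.000132) in vehicle-treated mice. By size of the difference Ccl12 ranked 3 and 2 among 19938 genes in those comparisons and 2 in the averaged one, ranks given as a description. The nonirradiated values lie close to where Kdm5d, though not Uty or Eif2s3y, reads in female-pattern arrays. The fold may therefore be a ratio to a level near that of absent transcripts.

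Ccl7 (10379518), another CCR2 ligand, called MCP-3, had a smaller difference. It read 6.30, 6.51 and 6.88 in irradiated PTH marrow, against 5.54, 5.79 and 5.12 in nonirradiated PTH marrow. Irradiated vehicle marrow gave 6.66, 6.53 and 6.64, against 5.91, 5.75 and 6.19 in nonirradiated vehicle marrow. All 6 irradiated arrays were above all 6 nonirradiated ones. The nonirradiated PTH values 5.54 and 5.12 lie in the range in which absent Y-linked transcripts read. The difference was 1.08 ± 0.19 log2 units (2.12-fold, 1.58 to 2.83, limma adjusted p = 0.0108) in PTH-treated mice, and 0.66 ± 0.19 in vehicle-treated mice, where it did not pass (adjusted p = 0.118). Averaged over both treatments it was 0.87 ± 0.14 (1.83-fold, adjusted p = 0.00208). In PTH-treated mice the call was lost when only the groups compared were fitted (adjusted p = 0.0787) or sex was a term in the fit (adjusted p = 0.111).

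Ccl8 (10379535) encodes MCP-2, which in the mouse acts through CCR8. Its values were 4.89, 4.66 and 5.76 in irradiated PTH marrow, against 4.02, 4.17 and 4.19 in nonirradiated PTH marrow, and the vehicle-treated mice gave 4.54, 4.71 and 5.70, against 4.38, 3.90 and 4.17. The states did not overlap, but replicate 3 of each irradiated group stood above its group mates. All 6 nonirradiated values and 4 of the 6 irradiated ones lie in the range in which absent Y-linked transcripts read. Neither treatment alone passed (0.97 ± 0.31, adjusted p = 0.163, with PTH; 0.83 ± 0.31, adjusted p = 0.251, with vehicle), and the averaged difference did (0.90 ± 0.22, 1.87-fold, limma adjusted p = 0.0312). Without those irradiated replicates 3 it was 0.56 (adjusted p = 0.0131), an alternative chosen after the values were seen. The averaged call was lost without nonirradiated vehicle replicates 2 (0.84, adjusted p = 0.0814) or 3 (0.91, 0.0639), nonirradiated PTH replicate 1 (0.88, 0.0830), nonirradiated PTH replicate 2 (0.91, 0.0641), nonirradiated PTH replicate 3 (0.92, 0.0646) or irradiated vehicle replicate 3 (0.72, 0.0516).

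Ccl2 (10379511) encodes MCP-1, the CCR2 ligand best known for releasing monocytes from marrow. It read 6.03, 6.21 and 6.01 in irradiated PTH marrow, against 5.55, 5.21 and 5.68 in nonirradiated PTH marrow, without overlap. Irradiated vehicle marrow gave 5.75, 6.02 and 6.40, against 5.49, 5.89 and 5.67, and these groups overlapped. The nonirradiated values 5.21, 5.49 and 5.55 lie in the range in which absent Y-linked transcripts read. The averaged difference was 0.49 ± 0.13 log2 units (1.40-fold, 1.16 to 1.71, limma adjusted p = 0.0441), close to the threshold. It was 0.60 ± 0.18 with PTH (adjusted p = 0.13) and 0.37 ± 0.18 with vehicle (adjusted p = 0.411). The averaged call held without nonirradiated vehicle replicate 2 (0.54, adjusted p = 0.0462), irradiated vehicle replicate 1 (0.57, 0.0238) or irradiated PTH replicate 3 (0.51, 0.0478), and it was lost when any 1 of the other 9 arrays was left out, with differences of 0.40 to 0.54 and adjusted p up to 0.109.

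**Figure D2:**
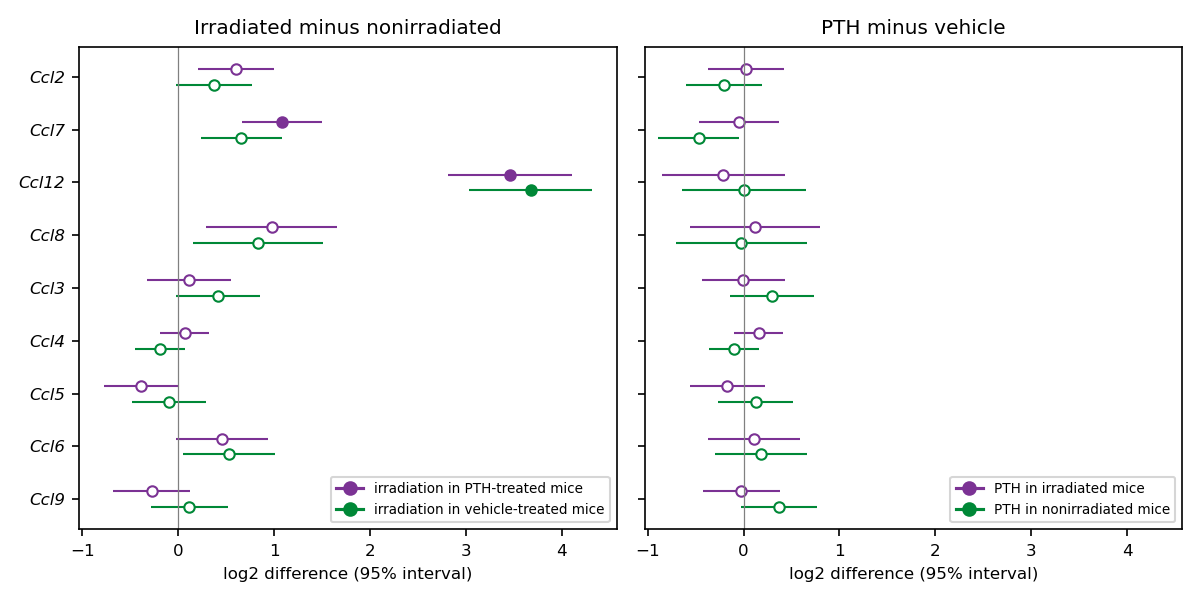
Differences in log2 expression with 95% intervals for the 9 genes, irradiated minus nonirradiated on the left and PTH minus vehicle on the right. Filled points passed at adjusted p under 0.05. Ccl12 passed in both irradiation comparisons (3.46 and 3.68) and Ccl7 in PTH-treated mice (1.08); no point is filled for PTH against vehicle.

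Ccl3 (10389231) and Ccl4 (10379721), which encode the MIP-1 proteins alpha and beta, chemokines of activated macrophages and lymphocytes, did not pass. Ccl3 read 7.13, 7.23 and 6.63 in irradiated PTH marrow, against 7.04, 6.56 and 7.04 in nonirradiated PTH marrow. With vehicle it read 6.70, 7.10 and 7.19 after irradiation, against 6.75, 6.61 and 6.39 without. These groups overlapped, and the averaged Ccl3 difference was 0.26 (95% interval -0.04 to 0.57, limma adjusted p = 0.394). Ccl4 spanned 5.07 to 5.46 in irradiated and 5.13 to 5.44 in nonirradiated marrow, a difference of -0.06 (-0.24 to 0.12, adjusted p = 0.815). Its 3 irradiated vehicle arrays were all below the 3 nonirradiated vehicle arrays (-0.19 ± 0.12, adjusted p = 0.555), as were 9.83% of all genes. All Ccl4 values lie within the 3.59 to 5.60 of absent Y-linked transcripts, though above those of Uty and Eif2s3y. The lack of a call may therefore say little about this gene.

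Ccl5 (10389207), the RANTES chemokine of T cells and NK cells, read 7.17, 6.91 and 7.66 in irradiated PTH marrow, against 7.52, 7.67 and 7.72 in nonirradiated PTH marrow. The difference there was -0.39 ± 0.18 (limma adjusted p = 0.368) and in vehicle-treated mice -0.10 ± 0.18 (adjusted p = 0.861). With arrays weighted by how well each followed the fit, Ccl5 passed the test as lower in irradiated marrow, by -0.54 ± 0.13 in PTH-treated mice (limma adjusted p = 0.0259) and by -0.39 ± 0.09 averaged over both treatments (adjusted p = 0.0147). The groups overlapped in both. Of 15 T and NK cell markers, 5 fell and 1 rose in the averaged comparison (median of the list -0.33), where 716 and 500 of all 19938 genes did. The 5 were Cd2, Cd3e, Cd3g, Cd8a and Lat, and the 1 was the granule protease gene Gzmb, all named after their values were seen. Cd2 fell the most (-1.98), against -0.355 to -0.76 for the others that fell. The count that fell was 4 with sex as a term, 4 without both arrays of narrow range and 3 to 5 with 1 array left out. The NK cell receptor genes Ncr1 (-0.355), Klrb1c (-0.12) and Klrk1 (-0.25) did not pass. The mean level of the 15 markers per array was 6.22 to 6.24 in irradiated PTH, 6.32 to 6.38 in irradiated vehicle, 6.62 to 6.73 in nonirradiated PTH and 6.34 to 6.66 in nonirradiated vehicle marrow. The part of those cells in the Ccl5 values was not tested.

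Ccl6 (10389222) and Ccl9 (10389214), CCR1 ligands of the mouse, did not pass either. Ccl6 read 9.19, 9.61 and 9.92 in irradiated PTH marrow, against 9.11, 8.85 and 9.38 in nonirradiated PTH marrow, and 9.26, 9.37 and 9.76 in irradiated vehicle marrow, against 9.17, 9.04 and 8.59 in nonirradiated vehicle marrow. The vehicle groups did not overlap, whereas the PTH groups did, and the averaged difference of 0.49 ± 0.16, the same size as that of Ccl2, did not pass (limma adjusted p = 0.0988). Ccl9 read 8.07, 8.11 and 7.70 in irradiated PTH marrow, below 8.23, 8.25 and 8.23 in nonirradiated PTH marrow, a lack of overlap shared by 10.9% of all genes, whereas the vehicle groups overlapped at 7.87 to 8.18 with irradiation and 7.49 to 8.26 without. The Ccl9 differences were -0.28 ± 0.18 with PTH (adjusted p = 0.551) and 0.12 ± 0.18 with vehicle (adjusted p = 0.838).

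Counted together, 2 of the 9 genes, Ccl7 and Ccl12, were called higher in PTH-treated mice, where 0.692% of all genes were called higher. In vehicle-treated mice 1 gene, Ccl12, was called higher, against 1.21% of all genes. The averaged comparison called 4 higher, Ccl2, Ccl7, Ccl8 and Ccl12, against 2.51% of all genes. Irradiated arrays lay above nonirradiated arrays without overlap for 4 members with PTH (Ccl2, Ccl7, Ccl8, Ccl12) and 4 with vehicle (Ccl6, Ccl7, Ccl8, Ccl12), where 8.93% and 8.95% of all genes did so, and for 3 of the 9 over both treatments (Ccl7, Ccl8, Ccl12), where 1.69% did. The median difference of the 9 genes was 0.46, 0.41 and 0.49 log2 units in the PTH, vehicle and averaged comparisons, beside 0.01, -0.03 and -0.01 for all genes. Since irradiation results were known when the family was chosen, nothing is read from these shares.

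Sex pattern and group were unevenly mixed, so irradiated and nonirradiated arrays were also compared within each pattern. These comparisons are unbalanced for treatment. The nonirradiated arrays were all PTH in the female pattern and all vehicle in the male one, whereas irradiated arrays of each pattern came from both treatments. Among female-pattern arrays (2 irradiated, 3 nonirradiated) Ccl12 read 8.60 to 8.64, against 5.08 to 5.61, and among male-pattern arrays (4 irradiated, 3 nonirradiated) 8.58 to 9.53, against 4.95 to 5.95. Ccl2, Ccl7, Ccl8 and Ccl12 were higher in all irradiated arrays of both patterns, which 2.36% of all genes were. For Ccl7, Ccl8 and Ccl12 this was fixed beforehand, because their states did not overlap over all 12 arrays, as in 1.69% of all genes. Of these genes only Ccl2 could have come out otherwise, so the split adds nothing for the others. With sex as a term the averaged difference was 3.49 for Ccl12 and 0.82 for Ccl8 (limma adjusted p = 0.0487), whereas Ccl2 did not pass (0.44, adjusted p = 0.0735). With the 2 arrays of narrow range left out, Ccl7 and Ccl12 alone passed in the averaged comparison, and Ccl8 was 0.74 higher (adjusted p = 0.0652).

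**Figure D3:**
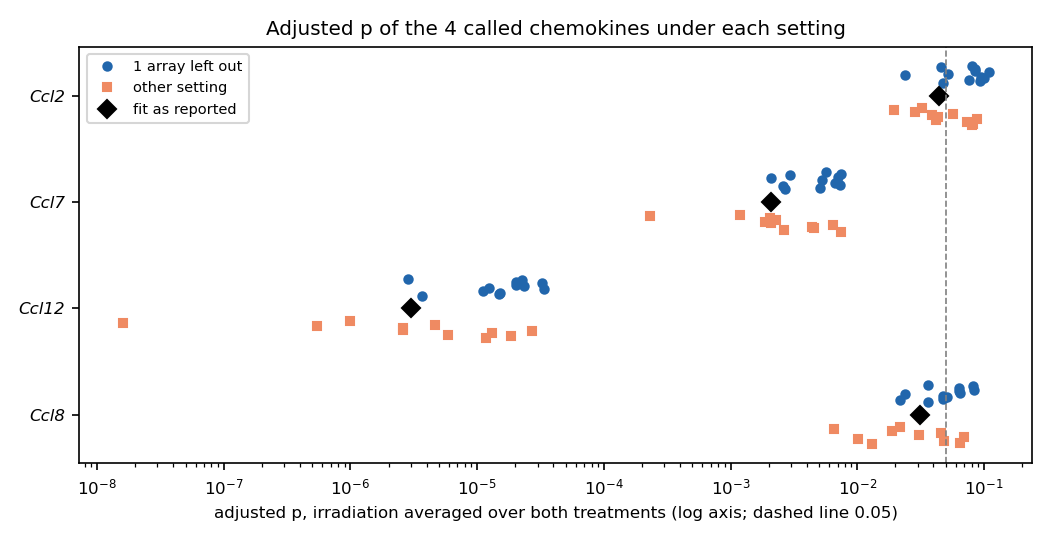
Adjusted p of the averaged irradiation difference for the 4 chemokine genes called, on a log axis. Black diamonds are the fit as reported, blue circles leave out 1 array each, and orange squares are the other settings; the dashed line is at 0.05. Ccl12 and Ccl7 stayed below the line in all 12 fits with an array left out and in all 11 other settings, Ccl8 in 6 of 12 and 8 of 10, and Ccl2 in 3 of 12 and 6 of 11.

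PTH against vehicle asks whether the hormone altered chemokine expression with or without prior irradiation. None of the 9 genes passed in irradiated mice, in nonirradiated mice or in the interaction of irradiation and PTH, and 0% of all genes were called by limma in each of these comparisons. At an unadjusted p under 0.05 there were 759 genes in irradiated mice, 356 in nonirradiated mice and 1094 for the interaction, and among the 9 chemokines only Ccl7 in nonirradiated mice. Ccl12 averaged 8.80 ± 0.34 in irradiated PTH marrow and 9.01 ± 0.47 in irradiated vehicle marrow (SD, n = 3 each), a difference of -0.21 (95% interval -0.85 to 0.43). Ccl7 was 5.48 ± 0.34 in nonirradiated PTH marrow and 5.95 ± 0.22 in nonirradiated vehicle marrow, a difference of -0.47 (-0.89 to -0.05, limma adjusted p = 0.9996). All nonirradiated PTH arrays had a female pattern and all nonirradiated vehicle arrays a male one, so hormone and sex cannot be told apart there.

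The 95% intervals give the PTH differences these data leave possible. In irradiated mice the Ccl8 difference was 0.12 (-0.56 to 0.80), that of Ccl2 0.03 (-0.37 to 0.42) and that of Ccl4 0.16 (-0.10 to 0.41). That of Ccl3 was -0.0011 (-0.44 to 0.43), of Ccl5 -0.17 (-0.55 to 0.22), of Ccl6 0.11 (-0.37 to 0.59) and of Ccl9 -0.02 (-0.42 to 0.38). In nonirradiated mice Ccl9 was 0.37 higher with PTH (-0.03 to 0.77), 8.24 ± 0.01 in PTH marrow and 7.87 ± 0.38 in vehicle marrow. The others there were Ccl3 0.30 (-0.14 to 0.73), Ccl6 0.18 (-0.30 to 0.67), Ccl5 0.13 (-0.26 to 0.51), Ccl8 -0.02 (-0.70 to 0.66), Ccl4 -0.10 (-0.36 to 0.16) and Ccl2 -0.20 (-0.60 to 0.19). The PTH difference in Ccl12 differed by -0.22 (-1.13 to 0.69) between irradiated and nonirradiated mice, and that in Ccl7 by 0.42 (-0.17 to 1.02).

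Of 9 receptor genes measured, 1 passed in the averaged comparison: Ackr1, an atypical receptor of red cell precursors and venular endothelium that binds chemokines without signalling, was 0.51 ± 0.14 log2 units higher in irradiated marrow (limma adjusted p = 0.0482; median of the list 0.04). It spanned 8.32 to 9.37 in irradiated and 8.31 to 8.74 in nonirradiated marrow, with irradiated PTH replicate 3 the lowest irradiated array. The Ackr1 call held without that array (0.63, adjusted p = 0.00402) and was lost when any 1 of the other 11 was left out (0.42 to 0.57, adjusted p up to 0.131). Ccr2, the monocyte receptor of CCL2, CCL7 and CCL12, read 9.08, 10.04 and 9.39 in irradiated PTH and 9.26, 9.35 and 9.31 in irradiated vehicle marrow, against 10.01, 10.02 and 9.74 in nonirradiated PTH and 10.30, 9.81 and 9.40 in nonirradiated vehicle marrow. Its averaged difference of -0.48 ± 0.17 did not pass (adjusted p = 0.161), and that of Ccr1 was 0.04 ± 0.21 (adjusted p = 0.961).

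Markers of the cells that these chemokines attract were read from lists. Of 14 monocyte markers 0 rose and 2 fell in the averaged comparison, where 500 and 716 of all 19938 genes did. The median was -0.40, and 2 of the 14 differences were above 0, those of Cd14 (0.15) and Fcgr1 (0.52). The 2 that fell were F13a1, a transglutaminase subunit gene, and Ace, which encodes angiotensin-converting enzyme. These genes were named after their values were seen. The count that fell was 1 with sex as a term and in 7 of the 12 fits that left out 1 array. Without both arrays of narrow range 1 rose and 3 fell, and without irradiated PTH replicate 3, 1 rose and 2 fell. The mean level of the 14 markers per array was 7.47 to 7.98 in irradiated PTH, 7.73 to 7.89 in irradiated vehicle, 8.01 to 8.32 in nonirradiated PTH and 7.88 to 8.18 in nonirradiated vehicle marrow. Of 20 macrophage markers 7 rose and 0 fell (median 0.43), 6 with sex as a term and 6 without the arrays of narrow range. The macrophage count was 3 without nonirradiated PTH replicate 2, 4 without irradiated vehicle replicate 3 and 4 without nonirradiated PTH replicate 3, and 5 to 8 without any 1 of the others. The macrophage list averaged 8.31 to 8.74 in irradiated PTH, 8.66 to 8.86 in irradiated vehicle, 8.33 to 8.46 in nonirradiated PTH and 8.08 to 8.47 in nonirradiated vehicle marrow. The part of these cells in the chemokine values was not tested.

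Other CC chemokines gave no call, and most averaged no higher than the highest reading of an absent transcript, that of Kdm5d. The means of 7 of the 10 measured, Ccl1, Ccl17, Ccl20, Ccl22, Ccl24, Ccl26 and Ccl28, lay within the 3.59 to 5.60 of absent transcripts in both states. They lay above the readings of Uty and Eif2s3y, and the lack of a call there may say little about these genes. Of 10 genes measured 0 passed in each of the 3 irradiation comparisons with limma, with 3 at an unadjusted p under 0.05 in the averaged one and a median difference of 0.03. This includes the neighbours of the genes that rose: Ccl11, an eosinophil attractant that lies between Ccl7 and Ccl12, spanned 5.90 to 6.22 in irradiated and 5.81 to 6.42 in nonirradiated marrow (difference 0.07), and Ccl1, next to Ccl8, 4.91 to 5.68 and 4.99 to 5.36 (difference -0.03).

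Among 14 CXC, CX3C and XC chemokines 3 rose in the averaged comparison, with a median of 0.05. Cxcl9, an interferon-gamma-induced ligand of CXCR3, read 8.18, 7.81 and 7.92 in irradiated PTH and 9.06, 8.78 and 8.62 in irradiated vehicle marrow, against 6.79, 7.51 and 7.41 in nonirradiated PTH and 7.25, 7.36 and 7.28 in nonirradiated vehicle marrow. The irradiated arrays were all above the others, by 1.13 ± 0.13 on average (limma adjusted p = 0.000314). Cxcl16, which attracts CXCR6-bearing T cells, was 0.65 ± 0.10 higher (5.55 to 6.02 in irradiated, 4.89 to 5.31 in nonirradiated marrow, adjusted p = 0.00208). Its nonirradiated values all lie in the range in which absent Y-linked transcripts read. Cxcl10, another CXCR3 ligand, was 0.88 ± 0.22 higher (adjusted p = 0.0334), although irradiated PTH replicate 3 read 6.38, below every nonirradiated array. Without that array the Cxcl10 difference was 1.12 (adjusted p = 0.000126), and the call also held without nonirradiated vehicle replicate 2 (0.98, 0.0332) but not without any 1 of the other 10 arrays (0.76 to 0.91, adjusted p up to 0.0801).

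**Figure D4:**
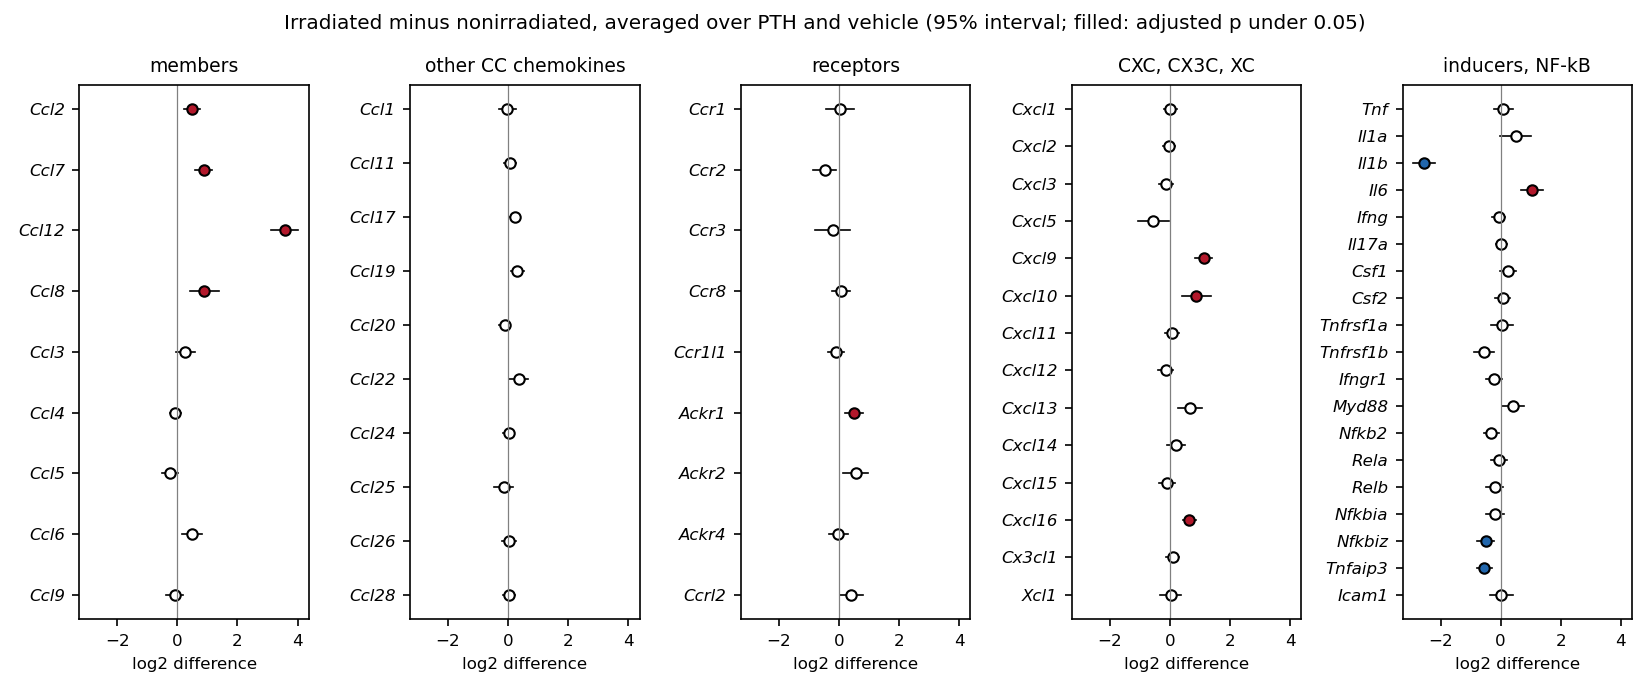
Averaged irradiation differences in log2 expression with 95% intervals for the 9 chemokines, 10 other CC chemokines, 9 receptors, 14 CXC, CX3C and XC chemokines and 19 inducing cytokine and NF-kB genes. Red points passed and were higher in irradiated marrow, blue points passed and were lower, and open points did not pass. Ccl12, at 3.57, is the largest rise drawn and Il1b, at -2.54, the largest fall.

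Cytokine and NF-kB pathway genes were read next, a list that also holds NF-kB inhibitor genes such as Tnfaip3. Of 19 measured, 1 rose and 3 fell in the averaged comparison (median -0.05), where 500 and 716 of all 19938 genes did. Il6, a cytokine of stromal cells and macrophages, spanned 4.32 to 5.25 in irradiated and 3.56 to 4.50 in nonirradiated marrow (1.03 ± 0.17, limma adjusted p = 0.00267). All 12 of these values lie within or below the 3.59 to 5.60 of absent Y-linked transcripts, so they do not show that Il6 was expressed in either state. The irradiated ones all lie above the readings of Uty and Eif2s3y. Il1b, a cytokine gene of myeloid cells, spanned 5.57 to 6.48 in irradiated and 8.12 to 9.08 in nonirradiated marrow (-2.54 ± 0.17, adjusted p = 7.76e-06), and no array overlapped. The NF-kB inhibitor gene Tnfaip3 fell by 0.55 (adjusted p = 0.0122) and Nfkbiz, a nuclear IkB protein gene, by 0.49 (adjusted p = 0.0453); the Nfkbiz call held without irradiated vehicle replicate 1 (-0.57, 0.0264) or nonirradiated vehicle replicate 3 (-0.57, 0.0255) and was lost without any 1 of the other 10 arrays (-0.40 to -0.53, adjusted p up to 0.122). Tnf (0.09, adjusted p = 0.838) and Ifng (-0.06) did not pass.

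Genes of the type I interferon response rose: 10 of 17 measured passed in the averaged comparison, none fell, and the median was 0.90. Ifit1, which binds viral RNA, was 1.61 ± 0.18 higher (limma adjusted p = 0.000174), Oas1a, an oligoadenylate synthetase gene, 1.55 ± 0.11 (adjusted p = 9.8e-06), and Rsad2, which encodes viperin, 1.04 ± 0.13 (adjusted p = 0.000478). The RNA sensor gene Ifih1 (0.90 ± 0.13, adjusted p = 0.00122), Oasl2 (1.49 ± 0.23, 0.00166) and Rtp4 (1.42 ± 0.15, 0.000149) were higher too. In PTH-treated mice 6 passed and in vehicle-treated mice 5, all higher. These lists, like the 9 genes, were drawn up with earlier results of the data known. Their counts of genes that rose are read beside the 2.51% of all genes called higher in the averaged comparison. Counts of genes that fell are read beside the 716 of 19938 genes called lower there.

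The genes whose values ran most closely with each chemokine over the 12 arrays were found by Pearson's r, given as a description because arrays of 1 group share their treatment. Each gene was picked for the highest r among all genes compared, so a high r follows in part from the choice. The r after removing group means comes from the same arrays and is no separate support. For Ccl12 the closest genes were Fabp4 (r = 0.98), a fatty acid carrier gene of adipocytes and macrophages, Adh6b (0.98) and Fabp5 (0.98), and after removing group means r was 0.60, 0.75 and 0.85. Fabp4 read 11.4 to 11.8 in irradiated and 10.1 to 10.5 in nonirradiated marrow. In the averaged comparison 8 of 9 adipocyte markers, a list that includes Fabp4, rose (median 1.06), where 2.51% of all genes were called higher. The Ccl7 list was Pnpla5, Marco and Sfrp4 (r = 0.94, 0.89 and 0.89, and 0.90, 0.48 and 0.62 after removing group means), and that of Ccl2 was Paqr3, Ifit1 and Aspa (0.91, 0.89 and 0.87, and 0.77, 0.78 and 0.65). For Ccl3 the closest gene was Slc31a1 (0.90), for Ccl4 Fam187b (0.93), for Ccl5 Scn4b (0.87), for Ccl6 the eosinophil granule gene Prg3 (0.95) and for Ccl9 Fuca1 (0.92). After removing group means r was 0.93 for each of those pairs except Ccl5 with Scn4b, where it was 0.88.

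The closest genes to Ccl8 were Calml3 (r = 0.97), Cxcl13 (0.97), which attracts B cells, and Ubd (0.97), a ubiquitin-like modifier gene, and r stayed at 0.94, 0.95 and 0.93 after removing group means. Cxcl13 read 5.76, 5.72 and 6.58 in irradiated PTH and 5.71, 5.90 and 6.71 in irradiated vehicle marrow, against 5.31 to 5.47 in nonirradiated marrow, and its averaged difference of 0.67 did not pass (limma adjusted p = 0.0525). Ubd read 6.74, 6.73 and 8.27 and 6.58, 6.57 and 7.66 in those irradiated groups, against 5.33 to 6.13. Both genes, like Ccl8, were highest in replicate 3 of each irradiated group. Between Ccl8 and Ccl12 r was 0.85 over the arrays and 0.80 after removing group means, and between Ccl7 and Ccl12 it was 0.85 and 0.21. Irradiated PTH replicate 3 is also the array that stood apart on the first principal component, and its part in these correlations was not tested.

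**Figure D5:**
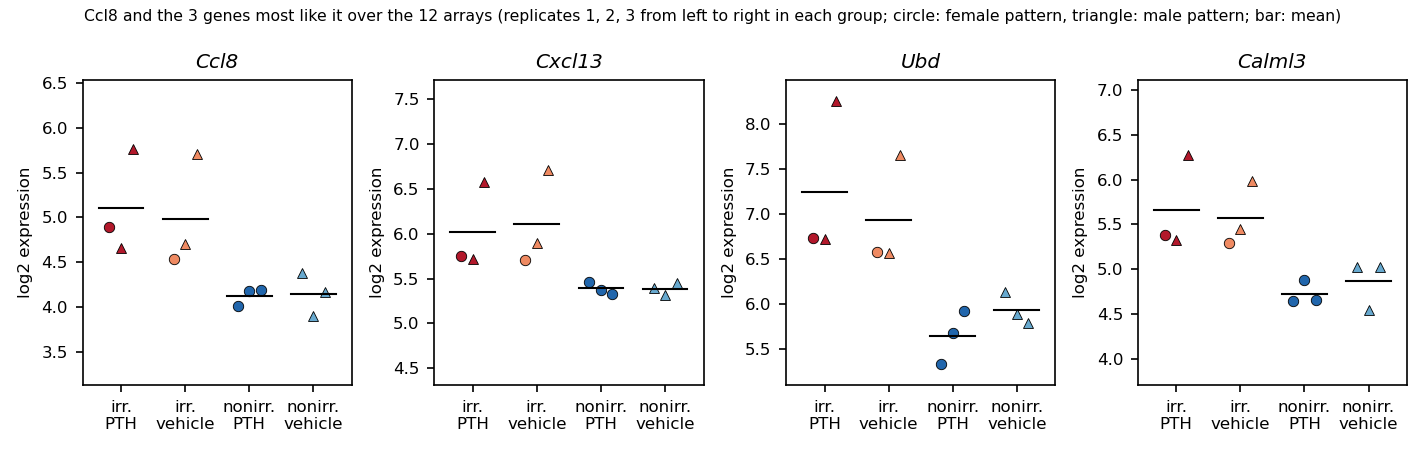
Log2 expression of Ccl8 and the genes most like it, Cxcl13, Ubd and Calml3, 1 point per array in irradiated PTH, irradiated vehicle, nonirradiated PTH and nonirradiated vehicle marrow, with bars at group means (n = 3). In each panel replicate 3 of both irradiated groups lies highest, at 5.76 and 5.70 for Ccl8, 6.58 and 6.71 for Cxcl13 and 8.27 and 7.66 for Ubd.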

How the data were processed

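Gene expression was measured on 12 microarrays hybridised with labelled RNA (100 ng of total RNA per sample, per the labels' protocols). The authors deposited 1 table of log2 expression values, 35556 probe sets by 12 arrays, and per the submitters' processing notes affy, RMA and limma were used. The log base was inferred from the range of the values, and no aligner or genome build is named for the array annotation (not given in the sources used here). RMA is meant to make arrays alike in distribution, but the deposited arrays still differed, with interquartile ranges of 2.86 to 3.25. It also compresses low values, so folds against dim genes may be understated.

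Of the probe sets, 21789 had 1 gene symbol, 1621 had several and 12146 were not listed. Symbols were updated through RefSeq (GRCm38.p6), where 91 found no match. The probe set with the highest mean stood for a gene, which gave 19938 genes. In R 4.3.3 with limma 3.58.1, 4 group means were fitted over all 12 arrays (8 residual degrees of freedom), 6 contrasts were tested with moderated statistics, and p-values were adjusted by Benjamini-Hochberg over 19938 genes, with 0.05 as the threshold. The number of arrays limits the precision: differences between 2 groups had a standard error of 0.17 log2 units at the median gene. On data simulated for the irradiation comparison in vehicle-treated mice, with 200 of 19938 genes changed, the fit recovered 12.4%, 65.4%, 95.4% and 99.8% of changes of 0.5, 1, 2 and 3.5 log2 units, and 5.34% of calls were false. The simulated noise was normal and independent between genes and arrays, without the narrow arrays or uneven sex pattern of the real data. These rates check the fit under its own assumptions and may not hold for the real arrays.

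The 9 genes and all 19 gene lists (231 entries, 212 measured) were chosen with earlier results of these data known. The rule for named genes took the 9 members, up to 6 called genes by smallest p from each of the receptor, other CC chemokine, other chemokine, inducing cytokine and interferon lists, and the 3 genes most correlated with each member. Gzmb, F13a1, Ace, Ccr1, Ccr2, Tnf, Ifng, Ccl1 and Ccl11, and any other gene named outside that rule, were chosen after their values were seen. Beyond those described in the report, the averaged irradiation comparison called 0 higher and 1 lower of 12 neutrophil markers, 0 and 8 of 9 B lineage, 0 and 1 of 9 eosinophil, basophil and mast cell, 0 and 4 of 6 megakaryocyte, 0 and 1 of 11 stromal, 1 and 0 of 10 endothelial, 0 and 0 of 9 osteoclast, 1 and 0 of 6 osteoblast, 0 and 0 of 4 sex-linked and 0 and 0 of 9 housekeeping genes. Those counts stand beside 500 genes called higher and 716 called lower of all 19938. Alternatives covered normalization, filters, array weights, sex, a replicate block and each array left out.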

Additional observations from a re-analysis of the deposited data

How the results depend on the processing

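Ccl12 and Ccl7 kept their averaged irradiation call under every alternative run, with differences of 3.34 to 3.72 for Ccl12 and 0.78 to 0.95 for Ccl7. Of the 9 genes, 2 were called in PTH-treated mice; array weights gave 4 (Ccl2, Ccl7 and Ccl12 higher and Ccl5 lower, -0.54, adjusted p = 0.0259), and fitting only the groups compared or adding sex as a term gave 1. In vehicle-treated mice 1 was called, and array weights gave 2. The averaged comparison called 4; array weights gave 5, adding Ccl5 as lower (-0.39, adjusted p = 0.0147), testing all probe sets gave 2, leaving out both arrays of narrow range gave 2, and leaving out 1 array gave 2 to 4, with 2 without nonirradiated vehicle replicate 3, any 1 nonirradiated PTH array or irradiated vehicle replicate 3. The cause was not tested.

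Over all genes the counts were 485, 442 and 1216 in the PTH, vehicle and averaged comparisons. Array weights gave 1148, 1149 and 2517. In PTH-treated mice, fitting only the groups compared gave 232, sex as a term 200 and leaving out 1 array 225 to 531. In vehicle-treated mice leaving out 1 array gave 211 to 762, and in the averaged comparison 822 to 1393. For PTH in nonirradiated mice the count was 0, and 4 when only those groups were fitted. Centring on housekeeping genes moved the median of all genes to 0.13 in the PTH-treated irradiation comparison.

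With the replicate number as a block, 2, 1 and 4 members were called in the PTH, vehicle and averaged irradiation comparisons and 0 in the PTH comparisons and the interaction, over 672, 500, 1407, 0, 0 and 0 genes, so no count of members moved. The numbers were not taken to pair the arrays: r between deviations of same-numbered arrays was -0.65 to 0.60 over 18 pairs, against -0.60 to 0.63 over 36 others, and 7 of 12 arrays correlated best with their own number. In both irradiated groups replicate 1 had the female pattern and replicates 2 and 3 the male one, so number and sex pattern run together there. Their part in the correlations after removing group means was not tested.

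Sign changes came up in differences that passed neither way. Array weights gave Ccl4 -0.0378 for irradiation with PTH, Ccl3 0.0927 and Ccl9 0.16 for PTH in irradiated mice and Ccl8 0.0499 for PTH in nonirradiated mice. Without both arrays of narrow range, values were Ccl4 -0.0058 for irradiation with PTH, Ccl9 -0.0721 for irradiation with vehicle, Ccl8 -0.21, Ccl3 0.18, Ccl6 -0.0613 and Ccl9 0.10 for PTH in irradiated mice, Ccl12 -0.19 for PTH in nonirradiated mice and Ccl8 -0.20 for the interaction. Without both irradiated arrays numbered 3, chosen after seeing the data, they were Ccl4 -0.0058 for irradiation with PTH, and Ccl3 0.28 and Ccl9 0.20 for PTH in irradiated mice. Housekeeping centring gave Ccl4 0.0076 for the averaged comparison, Ccl3 0.0342 and Ccl9 0.0107 for PTH in irradiated mice, Ccl12 -0.0622 for PTH in nonirradiated mice and Ccl6 0.0293 for the interaction. Repeated quantile normalization gave Ccl2 -0.028, Ccl3 0.0197 and Ccl9 0.0509 for PTH in irradiated mice, Ccl8 0.0341 for PTH in nonirradiated mice and Ccl6 0.0154 for the interaction. Sex as a term gave Ccl2 0.0734 and Ccl8 0.47 for PTH in nonirradiated mice, and Ccl2 -0.0455 and Ccl8 -0.35 for the interaction.

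Leaving out 1 array gave Ccl3 -0.0454 to 0.30 and Ccl4 -0.0058 to 0.14 for irradiation with PTH, Ccl9 -0.0721 to 0.31 with vehicle and -0.18 to 0.0151 averaged. For PTH in irradiated mice it gave Ccl2 -0.13 to 0.20, Ccl7 -0.20 to 0.0858, Ccl8 -0.21 to 0.48, Ccl12 -0.42 to 0.0471, Ccl3 -0.15 to 0.18, Ccl5 -0.37 to 0.0017, Ccl6 -0.0613 to 0.30 and Ccl9 -0.10 to 0.10. In nonirradiated mice Ccl8 spanned -0.15 to 0.0905 and Ccl12 -0.19 to 0.31, and for the interaction Ccl8 spanned -0.19 to 0.50, Ccl12 -0.52 to 0.0419 and Ccl6 -0.25 to 0.12. A filter on dim genes removed Ccl8 and Ccl4, whose values lie near those of absent transcripts, so it gave none for them.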
